A study of Mus musculus with 6 samples.

Results

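The integrin, laminin and basement membrane genes were read in the lungs of male mice at postnatal day 6. They comprised every array probe whose gene symbol was that of a numbered integrin alpha or beta subunit or laminin chain, of Itgal, Itgam or Itgav, of nidogen 1 or 2, of perlecan (Hspg2) or of agrin (Agrn). Symbols of another form, such as Itgax, Itgb2l and Lamb1-1, fell outside it. This rule took 43 probes for 32 genes out of 25697 probes for 18138 gene symbols. It used no measured value, but it was chosen with earlier results of these data known. Lungs of 3 hSRY-ON and 3 hSRY-OFF mice of the strain FVB (FVB/N in the study's methods) were compared, with 1 Illumina MouseRef-8 array for each mouse. In hSRY-ON mice a transgene for human SRY, the testis-determining factor of the Y chromosome, had been switched on by Cre recombination in the fertilised egg and was then driven by the broadly active CAG promoter together with EGFP. The Cre protein came from eggs of Ddx4-Cre mothers, and per the study's methods the hSRY-ON mice used did not inherit Ddx4-Cre themselves. The name hSRY-OFF stands in the study for the transgene before recombination, in which the CAG promoter drives DsRed2. The study also names littermates without this transgene as controls, so the exact genotype of the hSRY-OFF mice rests on their label. All transgenic mice descended from 1 responder line with a single copy at the H11 locus.

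Integrins are receptors made of an alpha and a beta subunit that fasten cells to the matrix around them and signal in both directions across the membrane. Laminins are cross-shaped proteins of an alpha, a beta and a gamma chain, and they form the sheet on which the other parts of a basement membrane assemble, with type IV collagen, nidogen, perlecan and agrin. In the lung, basement membranes lie under the airway and alveolar epithelium and around capillaries and smooth muscle, and in the alveolar wall those of epithelium and capillary are fused into the barrier through which gas passes. Epithelial cells hold on to it through hemidesmosomes, which contain the integrin of the alpha 6 and beta 4 subunits.

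The arrays detected between 13191 and 14134 probes each, at a detection p under 0.05. Across the 13841 probes tested, arrays correlated at 0.991 to 0.993 within hSRY-OFF, at 0.972 to 0.980 within hSRY-ON and at 0.935 to 0.959 between the groups. The tissue label was checked against surfactant and other alveolar type II cell markers, and all 8 of these genes were detected. Values below are normalized log2 intensities, in the order of replicates 1, 2 and 3, and changes are hSRY-ON minus hSRY-OFF on that log2 scale. A probe is named as called where limma gave an adjusted p under 0.05, two-sided, with Benjamini-Hochberg adjustment over all 13841 tested probes. The intensities of different probes are not comparable with each other, so no ranking of genes by level is given.

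Of the 43 member probes, 35 for 26 genes were bright enough to be tested, and 10 of these for 8 genes were called. The called share was 28.6%, beside 26.9% of all tested probes. Higher calls made up 11.4% of the member probes and 13.6% of all probes. Lower calls made up 17.1% of the member probes and 13.3% of all probes. The family as a whole was therefore called about as often as any probe on the array. Itgb4, Lamb3 and Lamc3 were higher in hSRY-ON lungs, and Itga1, Itga2, Itgb6, Lama1 and Lamc1 were lower.

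Group values did not overlap for 18 of the 35 tested member probes (51.4%), beside 46.6% of all tested probes. The median change was -0.12 over the member probes and -0.03 over all tested probes, and the median absolute change was 0.37 and 0.32. The median SD of a member probe was 0.13 in hSRY-OFF and 0.23 in hSRY-ON lungs. By the fitted change, 7 of the member probes were called with a 2-fold or larger difference, as were 9.7% of all tested probes. These include Lama1, which passed the detection filter through the hSRY-OFF arrays alone and for which only a bound under 2-fold can be given. Among the 32 member probes detected on all 6 arrays, 12 were called when the fit was restricted to such probes, beside 29.3% of all probes in that fit. With 3 arrays in each group the smallest p of an exact permutation test is 0.1, and limma pools the spread of all probes.

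**Figure D1:**
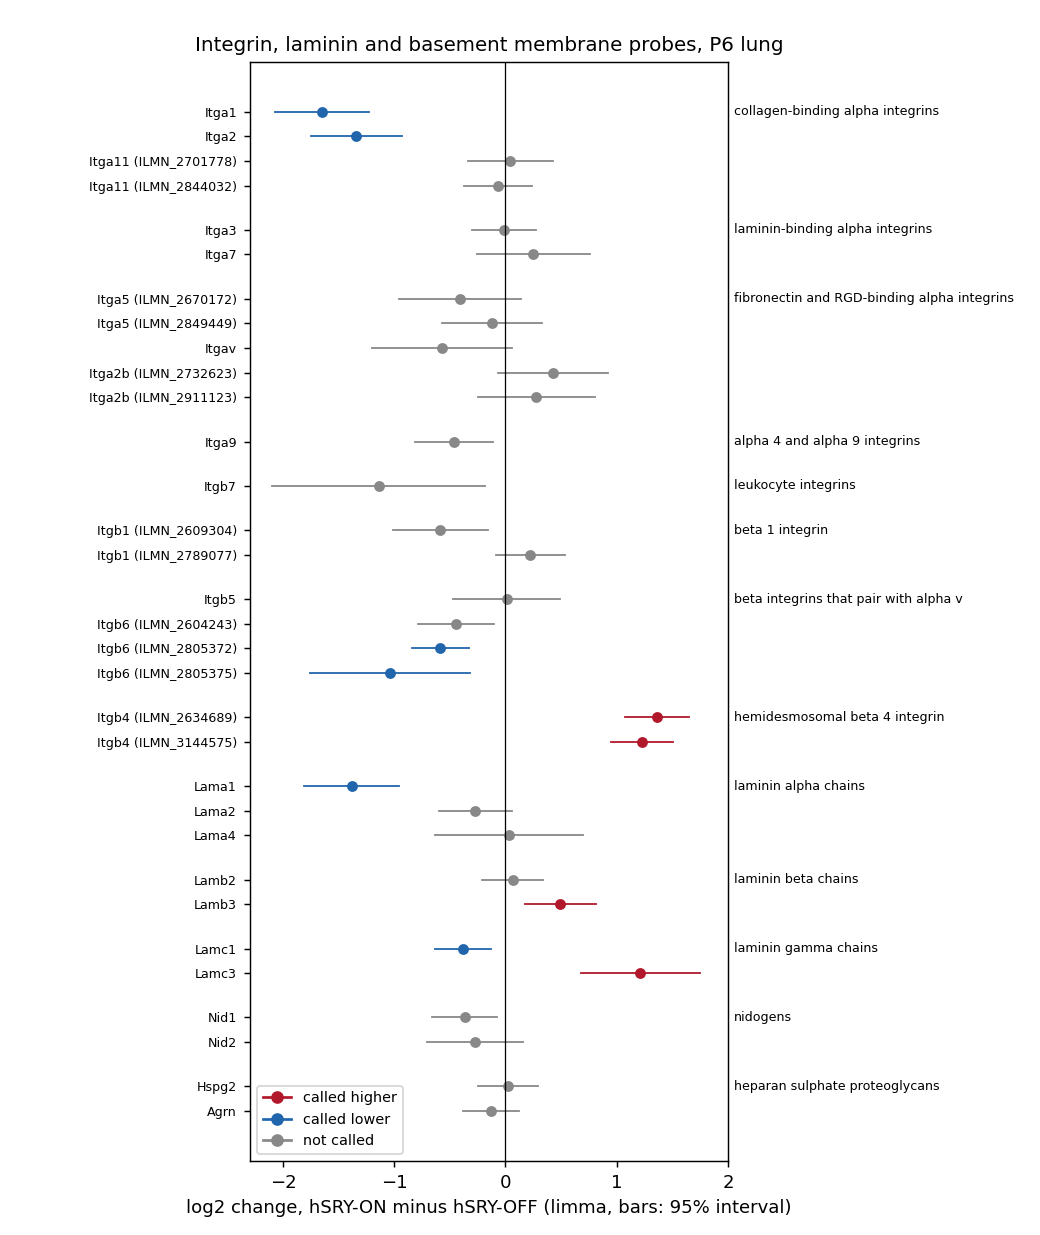
Log2 change (hSRY-ON minus hSRY-OFF, horizontal axis) of 32 tested member probes, grouped by role; points are limma estimates from 3 against 3 arrays and bars their 95% intervals. The 4 probes called higher (red) are those of Itgb4, Lamb3 and Lamc3, the 6 called lower (blue) lie between -0.38 and -1.65, and the other 22 (grey) are not called.

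Among the collagen receptors, Itga1 and Itga2 were both lower in hSRY-ON lungs and Itga11 was not called. Itga1 encodes the alpha 1 subunit, a receptor for basement membrane collagen found on smooth muscle, fibroblasts and capillary endothelium. Its probe read 9.62, 9.75 and 9.48 on the hSRY-OFF arrays and 8.25, 7.64 and 8.01 on the hSRY-ON arrays. Every hSRY-ON value lay more than a log2 unit below every hSRY-OFF value. The change of -1.65 (SE 0.18, n = 3 per group) amounted to 3.14-fold lower expression (limma, adjusted p = 0.00188).

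Itga2 encodes the alpha 2 subunit, a collagen and laminin receptor of epithelial cells and platelets. Its probe read 7.08, 6.79 and 6.80 in hSRY-OFF and 5.84, 5.51 and 5.29 in hSRY-ON lungs, where it was detected on 2 of 3 arrays. The groups were again well apart. The change was -1.34 (SE 0.17, n = 3 per group, limma, adjusted p = 0.0032), and it shrank to -0.47 when no background was subtracted, with adjusted p values between 0.00173 and 0.0187 over all alternatives. Itga11, a receptor for fibrillar collagen on fibroblasts, had 2 tested probes at 0.04 and -0.07 (limma, adjusted p = 0.861 and 0.726), and its probe ILMN_2603054 was not detected.

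Itga1 and Itga2 are neighbours in the mouse genome when genes are ordered by their lower coordinate. No other protein-coding gene has its lower coordinate between theirs (RefSeq, GRCm38.p6), and transcription starts between them were not searched. Their promoters are printed because these adjacent genes were both lower. Each is 300 bases of GRCm38.p6 from RefSeq, 5′ to 3′ on the minus strand, from 250 bases before the transcription start to 50 after it. Capitals mark matches to the motifs searched.
Itga1, chr13:115101915-115102214: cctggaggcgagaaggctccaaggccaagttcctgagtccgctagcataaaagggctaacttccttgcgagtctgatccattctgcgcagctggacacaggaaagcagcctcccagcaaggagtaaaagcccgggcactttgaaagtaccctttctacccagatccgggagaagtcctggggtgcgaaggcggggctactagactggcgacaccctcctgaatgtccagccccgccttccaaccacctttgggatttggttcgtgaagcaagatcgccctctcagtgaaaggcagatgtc
Itga2, chr13:114932051-114932350: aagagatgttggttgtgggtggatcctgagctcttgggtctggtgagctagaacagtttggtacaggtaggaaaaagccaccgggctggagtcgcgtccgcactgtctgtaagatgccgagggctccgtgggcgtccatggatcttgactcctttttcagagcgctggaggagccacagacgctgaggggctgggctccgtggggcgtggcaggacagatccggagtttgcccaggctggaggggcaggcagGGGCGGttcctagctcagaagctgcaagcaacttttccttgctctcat
The letters AACAAT (the core bound by SRY and SOX proteins), TGACTCA (AP-1), GGGCGG (SP1 box) and TATAAA (the element of many core promoters) were searched on both strands. The Itga1 window held none of them, and the Itga2 window held GGGCGG at base 253, counted from 1 at the 5′ end. G and C made up 56.7% of the Itga1 window and 59.3% of the Itga2 window, beside a median of 52.7% for all promoters.

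Promoter sequences were matched for 21 of the 32 member genes, 25 promoters in all, and for 4 of the 8 genes with a called probe. GGGCGG stood in 14 of the 25 member promoters (56%), beside 35.7% of all 32851 promoters. AACAAT was in 1 of 25 (4%) beside 10.7%, TGACTCA in 1 of 25 (4%) beside 5.2%, and TATAAA in none beside 13.6%. The single AACAAT match belonged to Itgb6, whose windows are printed where that gene is described. These matches describe letters in a window and are no measure of binding.

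The laminin-binding and fibronectin-binding alpha subunits were not called. Itga3, the epithelial laminin receptor subunit, changed by -0.01 (95% interval -0.30 to 0.27). Itga7, the laminin receptor subunit of muscle, had a change of 0.25 (95% interval -0.26 to 0.76). The intervals leave room for changes in either direction. Itga6, the usual partner of beta 4, was not detected on any array.

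Itga5, the fibronectin receptor subunit, gave changes of -0.41 and -0.12 for its 2 probes (limma, adjusted p = 0.231 and 0.669). Itgav, the alpha v subunit that binds fibronectin, vitronectin and latent TGF-beta, read 8.80, 8.70 and 8.10 in hSRY-OFF and 7.48, 8.18 and 8.23 in hSRY-ON lungs. The groups overlapped and the change was -0.57 (95% interval -1.20 to 0.05, limma, adjusted p = 0.152). Both probes of Itga2b, the platelet subunit, were a little higher on average in hSRY-ON, at 0.42 and 0.28, with overlapping groups (limma, adjusted p = 0.171 and 0.383). The summed signal of platelet markers was 935 to 1172 in hSRY-OFF and 849 to 1241 in hSRY-ON lungs. Of 6 tested platelet probes, 2 were called lower and none higher (33.3% called, beside 26.9% of all tested probes). Both were for the platelet chemokine Ppbp, at -0.71 and -0.59 (limma, adjusted p = 0.0178 and 0.0445). Over all 6 tested platelet probes, 3 changes were positive and 3 negative, with a median of 0.01. The Ppbp probes had the sign of Itga2, which platelets also carry, and the opposite sign to Itga2b. The part of platelets in these values was not tested.

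Itga9, a receptor subunit for tenascin C and other ligands, was uncalled although its groups did not overlap. It read 7.82, 7.74 and 7.82 in hSRY-OFF and 7.60, 7.11 and 7.27 in hSRY-ON lungs, a change of -0.46 (SE 0.15, limma, adjusted p = 0.0585). Without hSRY-ON replicate 1 it was called, at -0.60 (limma, adjusted p = 0.0144). Tenascin C itself was lower with 5 called probes, as given with the other integrin ligands. Itga4 was not detected.

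Among leukocyte integrins, only Itgb7 could be tested, and no probe carried the symbol Itgal. Itgb7 encodes the beta subunit of the gut-homing and intraepithelial lymphocyte integrins. It read 8.11, 8.06 and 8.06 in hSRY-OFF and 6.27, 6.57 and 7.97 in hSRY-ON lungs, so hSRY-ON replicates 1 and 2 were far lower and replicate 3 nearly equalled the hSRY-OFF values. The change of -1.14 (SE 0.41) was not called (limma, adjusted p = 0.0777), and without hSRY-ON replicate 3 it was -1.66 (limma, adjusted p = 0.00132).

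T, B and NK lymphocyte markers had the same order as Itgb7 on the hSRY-ON arrays but not on the hSRY-OFF arrays. Their summed signal was 2101 to 2528 in hSRY-OFF lungs, and 871, 1009 and 1904 on hSRY-ON arrays 1, 2 and 3. Of 8 tested lymphocyte marker probes, 5 were called lower and none higher (62.5% called, beside 26.9% of all tested probes). Ms4a1 and Ncr1 were detected on no array. The part of these cells in the Itgb7 values was not tested. In RNA from whole tissue, fewer cells of a type and less RNA per cell cannot be told apart.

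Itgam and Itgb2, the alpha and beta subunit of the macrophage and neutrophil integrin, stayed below the detection filter. Itgam was detected on 1 array, hSRY-ON replicate 3, at 5.88, and Itgb2 on none. The summed signal of neutrophil markers was 34911 on that array, 9060 and 13846 on the other hSRY-ON arrays and 5093 to 5827 on the hSRY-OFF arrays. The neutrophil part of the Itgam signal was not tested.

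The beta 1 subunit, partner of most of the alpha subunits above, gave different readings from its 2 probes. Probe ILMN_2609304 of Itgb1 read 9.64, 9.76 and 9.11 in hSRY-OFF and 8.89, 8.98 and 8.88 in hSRY-ON lungs, a change of -0.58 (SE 0.18, limma, adjusted p = 0.0531). Probe ILMN_2789077 of Itgb1 read 8.90, 8.98 and 9.24 in hSRY-OFF and 9.31, 9.19 and 9.28 in hSRY-ON lungs, a change of 0.22 (SE 0.13, limma, adjusted p = 0.245). The first had separate groups and the second overlapping ones, with opposite signs.

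Within each array the first Itgb1 probe minus the second averaged 0.46 in hSRY-OFF and -0.34 in hSRY-ON lungs, a difference of -0.81. With these arrays an exact permutation test cannot go below p = 0.1, so it gives no call on this difference. Without hSRY-OFF replicate 3, the lowest of its group, the first probe was called at -0.78 (limma, adjusted p = 0.0201). With probes of opposite sign, no single direction is given for Itgb1.

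**Figure D2:**
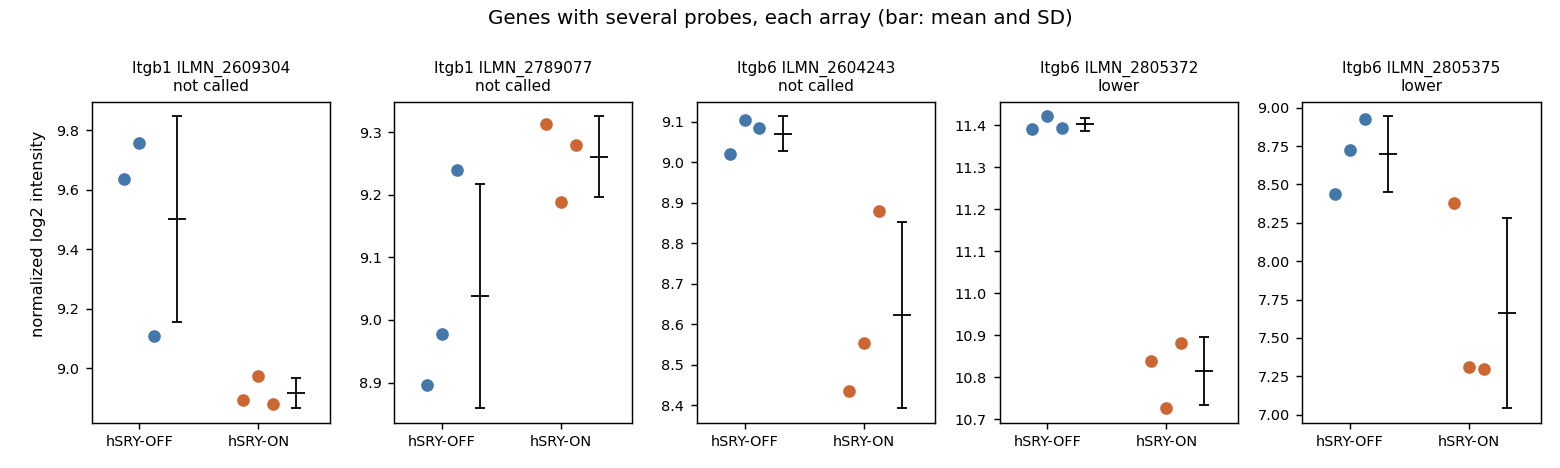
Normalized log2 intensity (vertical axis, scaled for each panel) of the Itgb1 and Itgb6 probes on the 3 hSRY-OFF (blue) and 3 hSRY-ON (orange) arrays, with group mean and SD. The Itgb1 probes changed by -0.58 and 0.22, and all 3 Itgb6 probes lay lower in hSRY-ON.

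Of the beta subunits that pair with alpha v, Itgb6 was lower in hSRY-ON lungs. Itgb6 encodes the beta 6 subunit, an epithelial receptor that releases TGF-beta from its latent form. Probe ILMN_2805372 of Itgb6 read 11.39, 11.42 and 11.39 in hSRY-OFF and 10.84, 10.73 and 10.88 in hSRY-ON lungs. The groups were tight and separate, and the change of -0.59 (SE 0.11, n = 3 per group) was 1.50-fold (limma, adjusted p = 0.00996).

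Probe ILMN_2805375 of Itgb6 read 8.44, 8.72 and 8.93 in hSRY-OFF and 8.38, 7.31 and 7.30 in hSRY-ON lungs. Replicate 1 of hSRY-ON lay just below the lowest hSRY-OFF value, and the other hSRY-ON arrays lay more than a log2 unit lower. The change was -1.04 (SE 0.31, limma, adjusted p = 0.0446). This call was lost without hSRY-OFF replicate 1, 2 or 3 (limma, adjusted p = 0.0824, 0.124 and 0.131), without hSRY-ON replicate 2 or 3 (limma, adjusted p = 0.130 and 0.104), with cyclic loess normalization (limma, adjusted p = 0.0532) and with no filter on detection (limma, adjusted p = 0.0711).

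The remaining Itgb6 probe, ILMN_2604243, had separate groups and a change of -0.45 (SE 0.14) but was not called (limma, adjusted p = 0.0584). Without hSRY-ON replicate 3, the highest of its group, it was called at -0.57 (limma, adjusted p = 0.0170). All 3 Itgb6 probes therefore had the same sign and different sizes. Itgb5, the broadly expressed beta 5 subunit, had a change of 0.01 (95% interval -0.47 to 0.49), and Itgb3 and Itgb8 were not detected.

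RefSeq gives Itgb6 a pair of start sites, printed because the AACAAT match lies in one of them. Both windows are 300 bases of GRCm38.p6 on the minus strand, 5′ to 3′, with the match in capitals as ATTGTT, its reverse complement.
Itgb6 start 1, chr2:60722554-60722853: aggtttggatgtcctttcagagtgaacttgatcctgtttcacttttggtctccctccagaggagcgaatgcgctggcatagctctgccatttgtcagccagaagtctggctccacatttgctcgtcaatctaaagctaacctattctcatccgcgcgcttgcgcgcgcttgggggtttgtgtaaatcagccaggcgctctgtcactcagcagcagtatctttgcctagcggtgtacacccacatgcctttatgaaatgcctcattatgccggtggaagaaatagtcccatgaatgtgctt
Itgb6 start 2, chr2:60673644-60673943: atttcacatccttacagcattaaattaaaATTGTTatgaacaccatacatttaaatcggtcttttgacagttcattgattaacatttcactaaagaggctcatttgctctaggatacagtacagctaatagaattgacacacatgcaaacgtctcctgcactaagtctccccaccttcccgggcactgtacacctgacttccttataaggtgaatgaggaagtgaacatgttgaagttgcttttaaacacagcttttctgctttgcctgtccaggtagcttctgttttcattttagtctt
The match stood at base 30 of the window of start 2, and the window of start 1 held none of the motifs searched. G and C made up 50.3% of the window of start 1 and 38.3% of that of start 2. Which start the array probes report is not stated in the sources used here.

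Itgb4 had the largest rise of the family. It encodes the beta 4 subunit, which joins alpha 6 in hemidesmosomes and in the lung is found on airway epithelium and part of the alveolar epithelium. Probe ILMN_2634689 of Itgb4 read 7.30, 7.50 and 7.27 in hSRY-OFF and 8.62, 8.73 and 8.79 in hSRY-ON lungs, a change of 1.36 (SE 0.12, n = 3 per group) or 2.57-fold (limma, adjusted p = 0.00109). Probe ILMN_3144575 of Itgb4 read 8.40, 8.31 and 8.44 in hSRY-OFF and 9.74, 9.56 and 9.53 in hSRY-ON lungs, a change of 1.23 (SE 0.12, n = 3 per group) or 2.35-fold (limma, adjusted p = 0.00135). Both probes separated the groups by more than a log2 unit and agreed in size. For the first probe the change was 0.82 with neither background correction nor quantile normalization, and adjusted p values lay between 0.00034 and 0.01 over all alternatives.

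The hemidesmosome genes that bind beta 4 or lie beside it were looked up after the Itgb4 values had been seen. Collagen XVII, encoded by Col17a1, was higher by 1 of 3 probes, at 1.01 (limma, adjusted p = 0.0202), with 0.43 and 0.61 for its uncalled probes. None of the 8 tested probes of Dst, Plec1 (plectin) and the tetraspanin Cd151 was called, and their changes ran from -0.59 to -0.04. Of the 11 tested probes of these partners 9.09% were called, beside 26.9% of all tested probes. The rise of Itgb4 was thus not shared by all genes of the structure.

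Epithelial markers also differed between the groups. The summed signal of airway secretory markers was 52084 to 54165 in hSRY-OFF and 63668 to 77480 in hSRY-ON lungs, with 4 of 6 tested probes higher and Plunc detected on no array. Ciliated cell markers summed to 3953 to 4244 and 6759 to 8248, with 5 of 7 probes higher and Dnahc5 detected on no array. Alveolar type II markers summed to 75422 to 76716 and 91371 to 96186, with 7 of 13 probes higher. None of these lists had a lower call, and 66.7%, 71.4% and 53.8% of their tested probes were called, beside 26.9% of all tested probes.

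Basal cell markers summed to 166 to 231 in hSRY-OFF and 546 to 1079 in hSRY-ON lungs, with both tested probes higher and the defining markers Krt5 and Trp63 detected on no array. Alveolar type I markers overlapped, at 44743 to 48604 and 46982 to 51225, with 1 of 7 probes lower (14.3%, beside 26.9% called overall on the array). Hopx and Rtkn2 were detected on no array. Itgb6, also an epithelial gene, was lower on the arrays on which most of these sums were higher. The part of epithelial cells in the Itgb4, Lamb3 and Itgb6 values was not tested.

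**Figure D3:**
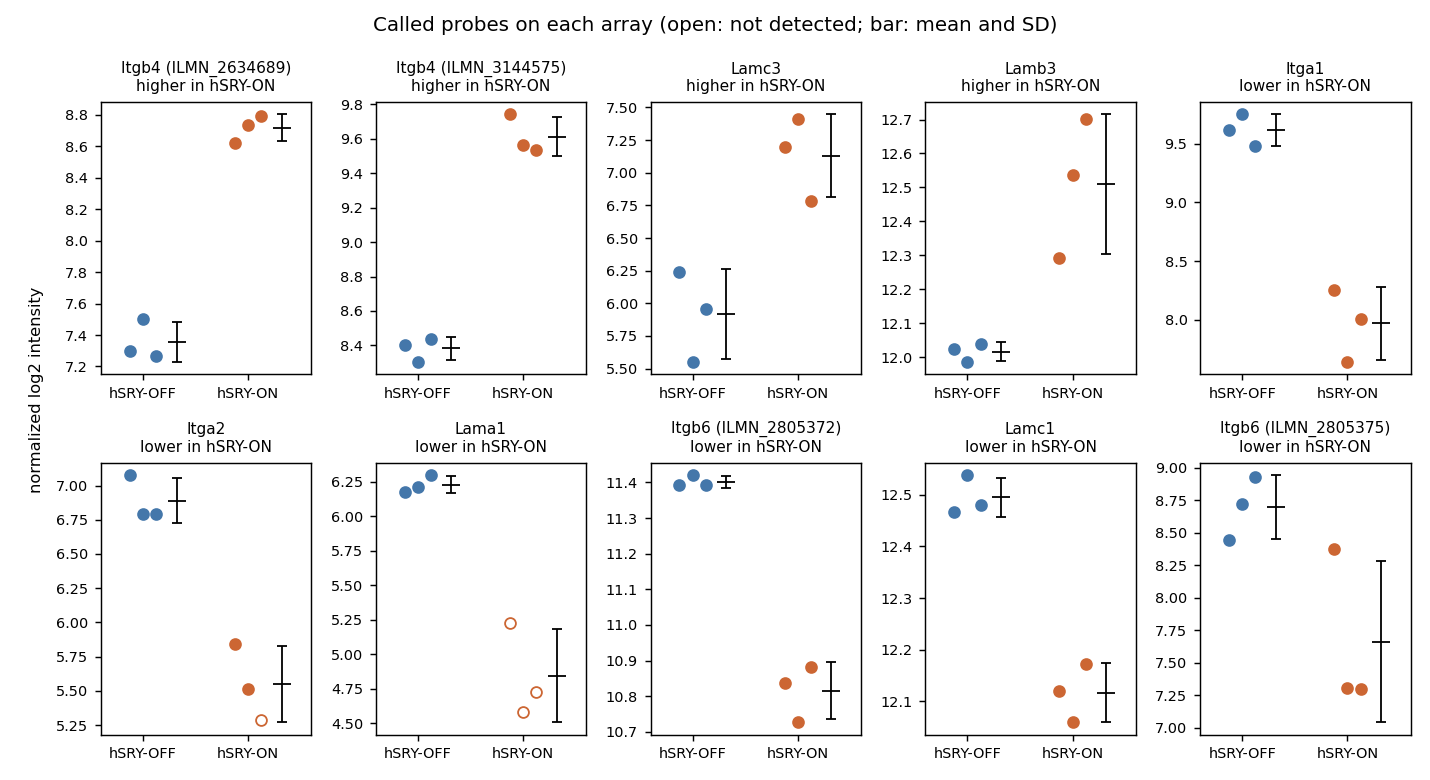
Normalized log2 intensity (vertical axis, scaled for each panel) of the 10 called probes on the 3 hSRY-OFF (blue) and 3 hSRY-ON (orange) arrays, with group mean and SD; open points were not detected. In every panel the groups are separate, by the widest margin for Itga1 and both Itgb4 probes and the narrowest for Itgb6 probe ILMN_2805375.

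Laminin alpha chains were represented by Lama1, Lama2 and Lama4, and no probe carried the symbol Lama3 or Lama5. Lama1 encodes the alpha 1 chain of embryonic basement membranes. Its probe read 6.18, 6.21 and 6.30 in hSRY-OFF and 5.23, 4.58 and 4.73 in hSRY-ON lungs, and it was detected on all hSRY-OFF and no hSRY-ON array. Only a bound can be given for such a probe, set by the dimmest detected probes of the hSRY-ON arrays. Under the chosen processing Lama1 was at least 1.77-fold lower, and its fitted change was called (limma, adjusted p = 0.00337). Because the detection filter took such probes through the brighter group alone, the adjusted p with all 25697 probes tested is given too. For Lama1 it was 0.00457 (limma, adjusted p). Over the alternatives the fitted change of Lama1 ran from -1.59 to -0.42. The hSRY-OFF level was itself close to the background.

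Lama2, the main alpha chain of muscle and mesenchyme, read 8.88, 8.82 and 8.68 in hSRY-OFF and 8.31, 8.67 and 8.58 in hSRY-ON lungs. The groups were barely separate and the change of -0.27 (95% interval -0.60 to 0.06) was not called (limma, adjusted p = 0.188). Lama4, the endothelial alpha chain, had a change of 0.03 with an interval from -0.63 to 0.70. The signal of Lama4 was near background, with detection on 2 of 3 hSRY-ON arrays.

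Lamb3 was higher in hSRY-ON lungs. It encodes the beta 3 chain, which is found in the laminin of hemidesmosome-bearing epithelium. It read 12.02, 11.99 and 12.04 in hSRY-OFF and 12.29, 12.54 and 12.70 in hSRY-ON lungs. The hSRY-OFF arrays were nearly equal and all hSRY-ON arrays lay above them, a change of 0.49 (SE 0.14, n = 3 per group) or 1.41-fold (limma, adjusted p = 0.0371). The call was lost without hSRY-OFF replicate 1, 2 or 3 (limma, adjusted p = 0.115, 0.123 and 0.0919) and without hSRY-ON replicate 2 or 3 (limma, adjusted p = 0.0898 and 0.0677). Lamb2, the beta 2 chain of vascular and muscle basement membranes, had a change of 0.06 (95% interval -0.21 to 0.34).

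Lamc1, the gamma 1 chain shared by most laminins, was lower. It read 12.47, 12.54 and 12.48 in hSRY-OFF and 12.12, 12.06 and 12.17 in hSRY-ON lungs, with tight and separate groups. The change was small, at -0.38 (SE 0.11, n = 3 per group) or 1.30-fold (limma, adjusted p = 0.0392). It was no longer called without hSRY-OFF replicate 1, 2 or 3 (limma, adjusted p = 0.120, 0.141 and 0.100) or hSRY-ON replicate 1 or 2 (limma, adjusted p = 0.0508 and 0.0882), nor with 1 scaling factor per array (limma, adjusted p = 0.157).

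Lamc3, the least widespread gamma chain, was higher by the probe that could be tested. That probe read 6.24, 5.55 and 5.96 in hSRY-OFF and 7.20, 7.41 and 6.78 in hSRY-ON lungs. Every hSRY-ON value was above every hSRY-OFF value, and the change was 1.21 (SE 0.23, n = 3 per group) or 2.32-fold (limma, adjusted p = 0.0105). The values are dim, and the change was 0.44 with neither background correction nor quantile normalization, with adjusted p values between 0.00688 and 0.0391 over all alternatives. The other Lamc3 probe was detected on no array.

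Nidogens link the laminin sheet to type IV collagen, and neither was called. Nid1 read 12.27, 12.49 and 12.19 in hSRY-OFF and 11.91, 11.97 and 11.98 in hSRY-ON lungs, which put all hSRY-ON arrays below the hSRY-OFF ones. Its change of -0.37 (SE 0.12) missed the threshold (limma, adjusted p = 0.0673). Nid2 overlapped between the groups, at -0.27 (95% interval -0.71 to 0.16).

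Neither heparan sulphate proteoglycan was called. Hspg2, which encodes perlecan, read 12.88, 13.06 and 12.87 in hSRY-OFF and 12.92, 13.03 and 12.92 in hSRY-ON lungs, a change of 0.02 (95% interval -0.25 to 0.30). Agrn, which encodes agrin, read 13.92, 13.98 and 13.93 in hSRY-OFF and 13.87, 13.76 and 13.81 in hSRY-ON lungs. Its groups were separate but its change of -0.13 (95% interval -0.38 to 0.12) was uncalled, and it turned to 0.08 with 1 scaling factor per array.

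**Figure D4:**
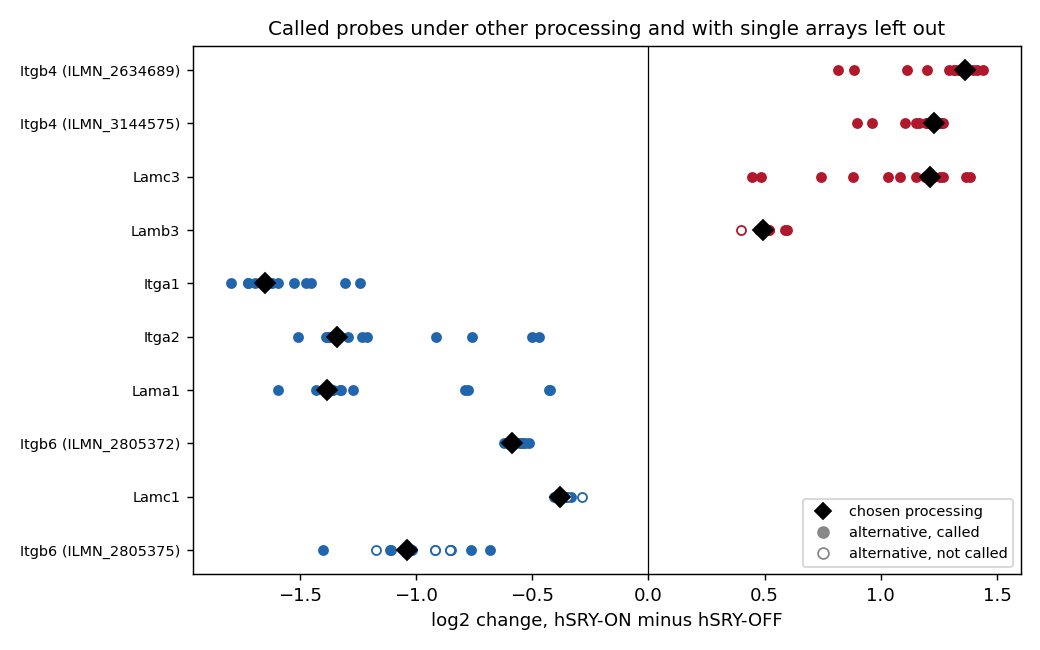
Log2 change (horizontal axis, hSRY-ON minus hSRY-OFF) of the 10 called probes under the chosen processing (diamonds) and under each alternative, including each array left out (circles, filled where called). Both Itgb4 probes, Itga1, Itga2, Lama1 and Itgb6 probe ILMN_2805372 were called in every alternative in which they were tested, and no called probe changed sign.

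Smooth muscle markers were lower on the arrays on which Itga1, Itga2, Lama1 and Lamc1 were lower. The summed signal of smooth muscle and myofibroblast markers was 49823 to 51683 in hSRY-OFF and 25198 to 34024 in hSRY-ON lungs, with 11 of 14 tested probes lower and none higher, and Cnn1 and Fgf18 detected on no array. Endothelial and fibroblast markers had lower sums there too. Calls took in 78.6% of smooth muscle, 31.2% of endothelial and 18.2% of fibroblast probes, beside 26.9% of all tested probes. Lower calls alone were 25% of endothelial and 9.09% of fibroblast probes, beside 13.3% of all tested probes. Endothelial markers summed to 91741 to 96565 and 75417 to 82393, with 4 of 16 probes lower and 1 higher, and Kdr detected on no array. Fibroblast markers summed to 59631 to 61103 and 46464 to 56592, with 1 of 11 probes called in each direction. Their part in the values of these integrins and laminins was not tested.

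The other genes of basement membranes were described from lists of type IV, XV and XVIII collagens and of assembly proteins. Of 11 tested collagen probes 3 were higher and none lower (27.3% called, beside 26.9% of all tested probes), with a median change of 0.11. Col4a4 was higher by both probes, at 0.68 and 0.50 (limma, adjusted p = 0.00722 and 0.0266), and Col4a3 by 0.43 (limma, adjusted p = 0.0380). Col4a3 and Col4a4 encode the collagen chains of the mature alveolar and glomerular basement membrane, whereas Col4a1 and Col4a2, the chains of basement membranes in general, had changes of -0.05 and -0.21 (limma, adjusted p = 0.779 and 0.208).

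Of 21 tested probes for assembly and associated proteins, 4 were higher and 6 lower (47.6% called, beside 26.9% of all probes). Their median change was -0.12. Ecm1, a matrix protein that binds perlecan, was higher at 1.40 and 0.87 (limma, adjusted p = 0.00483 and 0.00911). Smoc1, a calcium-binding basement membrane protein, was higher at 1.61 (limma, adjusted p = 0.0097), with detection on 1 of 3 hSRY-OFF arrays. Both genes were detected on every hSRY-ON array.

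Tinag, the tubulointerstitial nephritis antigen of basement membranes, was detected on all hSRY-OFF and no hSRY-ON array by probe ILMN_2608526. It read 6.44, 6.47 and 6.57 in hSRY-OFF and 4.82, 4.65 and 4.68 in hSRY-ON lungs, which made it at least 2.13-fold lower (limma, adjusted p = 0.000542, and 0.00051 with no filter on detection). Fbln1, which encodes the laminin- and nidogen-binding protein fibulin 1, was lower at -1.22 and -1.55 (limma, adjusted p = 0.0035 and 0.00384). The non-integrin laminin receptors and their partners, among them dystroglycan (Dag1) and Bcam, had no called probe among 10 tested, with 0 higher, 0 lower and a median change of -0.05. Over all tested probes 26.9% were called.

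Integrin activation and focal adhesion genes gave 9 higher and 4 lower calls among 36 tested probes (36.1%, beside 26.9% of all probes). Their median change was -0.02. Lims2, an adaptor of the integrin-linked kinase complex, was higher at 0.94 and 1.10 (limma, adjusted p = 0.0149 and 0.0186), and Lpxn, a paxillin relative of leukocytes, at 0.95 (limma, adjusted p = 0.0258). Tgfb1i1 (Hic-5), a paxillin relative of smooth muscle, was lower at -1.50 and -1.63 (limma, adjusted p = 0.00404 and 0.00521). Bcar1, the Src substrate p130Cas, was lower at -0.47 (limma, adjusted p = 0.0289).

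Integrin ligands outside the basement membrane gave 3 higher and 8 lower calls among 22 tested probes (50%, beside 26.9% of all probes). Their median change was -0.42. Tnc, encoding tenascin C, a ligand of alpha 9 and alpha v integrins, accounted for 5 of the lower calls. Its probe ILMN_2485085 read 9.82, 9.96 and 9.27 in hSRY-OFF and 6.50, 6.40 and 7.46 in hSRY-ON lungs, a change of -2.90 (SE 0.32, limma, adjusted p = 0.00189). The change was smaller for Tnc probe ILMN_2463180, at -1.98 (SE 0.22, limma, adjusted p = 0.00211). Vtn, encoding vitronectin, was lower at -2.42 (SE 0.30, limma, adjusted p = 0.0028). Its hSRY-ON values were near background, with detection on 2 of 3 hSRY-ON arrays.

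Fga, the fibrinogen alpha chain, was detected on no hSRY-OFF and every hSRY-ON array. Its 2 probes were at least 3.01-fold and at least 3.30-fold higher (limma, adjusted p = 0.000871 and 0.00675, and 0.00106 and 0.011 with no filter on detection). Ctgf, a matricellular integrin ligand, was higher at 0.90 (limma, adjusted p = 0.00909). The ligand genes thus held calls of opposite direction.

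Genes with integrin or laminin names that the rule does not take gave 2 higher and 0 lower calls among 8 tested probes. That was 25%, beside 26.9% of all tested probes, and the median change was -0.11. Itgbl1, a secreted protein with integrin-like repeats, read 4.68, 4.87 and 4.72 in hSRY-OFF and 7.57, 6.98 and 6.18 in hSRY-ON lungs. It was detected on hSRY-ON arrays alone and was at least 3.07-fold higher (limma, adjusted p = 0.00502, and 0.00784 with no filter on detection). Itgb1bp1, an adaptor of the beta 1 tail that also stands in the focal adhesion list, was higher at 0.49 (limma, adjusted p = 0.0319).

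**Figure D5:**
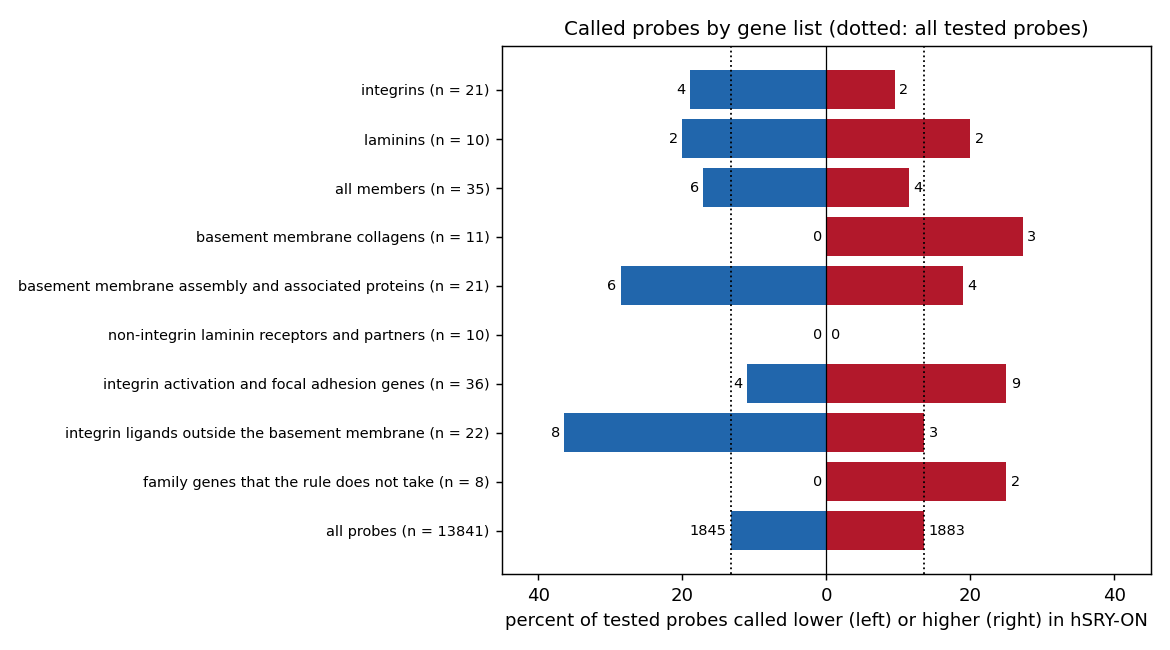
Percent of tested probes called lower (left, blue) and higher (right, red) in hSRY-ON lungs, for the members and the related lists, with counts beside the bars and the shares of all 13841 tested probes as dotted lines. Members as a whole had 6 lower and 4 higher calls of 35, and the integrin ligands had the highest share of lower calls, at 8 of 22.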

How the data were processed

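Lung RNA of 3 hSRY-OFF and 3 hSRY-ON mice, described as biological triplicates, was extracted with Trizol, amplified, biotin-labelled and hybridised to Illumina bead arrays. The authors deposited an intensity for each probe and array on a linear scale, not normalized, and a detection p-value. Scan batches and image software are not given in the sources used here. The submitters' processing notes name limma with no version, and the study's methods name TCC, a method for counts, whereas the fits here used limma 3.58.1 (R 4.3.3). The neqc steps of limma were followed: background from detection p-values, an offset of 16, quantile normalization and log2, which compresses the changes of dim probes. Testing by lmFit and eBayes, without covariates, took probes detected (p under 0.05) on 3 or more of the 6 arrays. The pipeline was tested on simulated data. No arrays held identical values, and 0 array columns were unmatched to a sample.

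The members and the gene lists were chosen with earlier results of these data known. Members with a called probe were given with every array value, and of each related list the called probes with the 3 smallest p in each direction. The hemidesmosome genes were added after the Itgb4 values had been seen. Probes of a gene were kept apart. The values of 1 member gene, which counts over all members include, are not reported here. A probe not detected on any array of a group has a bound: the mean of the brighter group against the mean, per array, of the higher of its own value and the lowest value of a detected probe. Bounds hold for the chosen processing alone, and the p printed with a bound tests the fitted change. Summed signals of markers add, on the linear scale, the normalized intensity of the brightest probe of each gene of a list. Promoters and gene order came from RefSeq, GRCm38.p6. Alternatives were other background corrections, normalizations, filters, variance models and thresholds, 1 probe per gene, the replicate number as a block and each array left out.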

Additional observations from a re-analysis of the deposited data

How the results depend on the processing

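Of the 10 member probes called, 6 were called in every alternative in which they were tested, and none changed sign. The number of member probes called was 6 at an adjusted p under 0.01, lay between 7 and 11 when each array was left out, and between 8 and 15 in the other alternatives without a block. With 1 scaling factor per array and no background correction it was 15, with 11 lower. Same-numbered arrays had correlations of deviations of -0.107, 0.0957 and -0.0927. So few values cannot show whether the numbers pair the mice, and the labels do not state it. With the replicate number as a block, 7 member probes and 2655 of all probes were called, and the calls of Lamb3, Lamc1 and Itgb6 probe ILMN_2805375 were lost. The cause was not tested.

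Among the member probes reported without a call, 5 (Itga9, Itgb1 ILMN_2609304, Itgb6 ILMN_2604243, Itgb7 and Nid1) gained one, all lower, in 29 fits in all. Changes of probes without a call crossed 0 in some alternatives. With 1 scaling factor per array they were 0.0831 for Agrn, -0.0632 for Itga11 (ILMN_2701778), 0.0592 for Itga3 and -0.0379 for Itgb5. Without a background correction as well, they were 0.0277 for Agrn, -0.0447 for Itga11, 0.00492 for Itga3 and -0.0617 for Itgb5. Itga3 was at 0.0371 with cyclic loess and Itgb5 at -0.0414 with array weights. When each array was left out, the changes spanned -0.0128 to 0.0879 for Hspg2, -0.0682 to 0.194 for Itga11, -0.0654 to 0.0628 for Itga3, -0.315 to 0.0512 for Itga5 (ILMN_2849449), -0.179 to 0.201 for Itgb5, -0.201 to 0.274 for Lama4 and -0.00435 to 0.102 for Lamb2. The cause was not tested.

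Signal over background limits the dim members. Changes of Itga2 and Lamc3 were under 0.51 in size without background correction, against over 1.2 with the chosen correction. The fitted change of Lama1 was -0.424 in the alternative where it was smallest. With 3 arrays a group, the design gives wide intervals, and a member without a call is not shown to be unchanged. Probes of Itgb1 disagree in sign, so the gene has no single value.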

Other observations

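Other cell type markers measured beside the integrins and laminins gave the following values, to be read beside 26.9% of all tested probes called. Mesothelial markers summed to 3852 to 4118 in hSRY-OFF and 8064 to 11396 in hSRY-ON lungs, with 5 of 5 tested probes higher. Macrophage markers summed to 33136 to 34767 and 44646 to 69336, with 8 of 14 probes higher and none lower. Proliferation genes summed to 7844 to 9810 and 2604 to 5824, with 8 of 11 probes lower and none higher. Pericyte markers summed to 2809 to 3143 and 2286 to 2586, with 1 of 6 probes called in each direction. Schwann cell markers summed to 6737 to 8481 and 6206 to 6641, with 4 of 6 probes higher. Cardiac muscle markers summed to 7139 to 9175 and 5543 to 11035, with 2 of 8 probes higher and 1 lower. No probe of the mast cell, skeletal muscle, erythroid or thymocyte lists was called by limma, out of 5, 5, 5 and 1 tested, and no adipocyte probe was tested. Itgb7 and the proliferation genes had their highest hSRY-ON value on the array of replicate 3, at 7.97 and 5824.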
